A study of Mus musculus with 8 samples.

Results

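Genes that bring platinum into the cell, hand it on, bind it or carry it out were followed in mouse embryonic stem (ES) cells treated with cisplatin. The set holds 10 genes, chosen by name for these roles: Slc31a1, Slc31a2, Atp7a, Atp7b, Atox1, Abcc1, Abcc2, Mt1, Mt2 and Gstp1. Every probe set annotated to 1 of them alone was taken, which gave 17 of the 28898 probe sets with a single gene. They read 9 of the 10 genes, against 17098 genes in the whole series. No probe set is annotated to Mt2 alone in the annotation used here, so Mt2 is not analysed. A gene's leading probe set is its brightest one, by the mean of the 8 arrays. ES cells are pluripotent cells taken from the blastocyst. The cells were HPRT deficient, of strain C57BL/6, at passages 19 to 22. Before the experiment they were grown on feeder cells and then on gelatin. In the 4 cisplatin samples 2.5 µM of the drug was present for 8 h, and the 4 control samples received the solvent dimethyl sulfoxide (DMSO) for the same time. One array was run per sample, and the labels do not say whether samples came from separate cultures. P-values here cover the variation among these samples alone, and part or all of it may be technical.

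Cisplatin is a platinum drug that crosslinks DNA. Platinum follows some of the routes that cells use for copper. Slc31a1 (CTR1) imports copper at the cell surface and has been linked to cisplatin uptake, and its relative Slc31a2 (CTR2) sits largely on endosomes and lysosomes. Atox1 is a small copper chaperone that passes the metal to the ATP-driven pumps Atp7a and Atp7b. Inside the cell, metallothioneins such as Mt1 bind metals through their many cysteines, glutathione binds platinum through its thiol, and Gstp1 is a glutathione transferase. The ABC transporters Abcc1 (MRP1) and Abcc2 (MRP2) export glutathione conjugates.

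The promoter stretches of the 3 members with the largest differences among those clearly above background are shown because metal, oxidative and p53 signals are all read at promoters. They are the 250 bases before the transcription start that RefSeq gives in the build GRCm38.p6, printed 5′ to 3′ on the strand of the gene. Capitals mark matches to any of 3 motifs, searched on both strands: the metal response element core (TGCACNC or TGCGCNC), the antioxidant response element core (TGACNNNGC) and the p53 decamer, the unit repeated in p53 response elements.
Slc31a2, chr4:62286179-62286428, plus strand: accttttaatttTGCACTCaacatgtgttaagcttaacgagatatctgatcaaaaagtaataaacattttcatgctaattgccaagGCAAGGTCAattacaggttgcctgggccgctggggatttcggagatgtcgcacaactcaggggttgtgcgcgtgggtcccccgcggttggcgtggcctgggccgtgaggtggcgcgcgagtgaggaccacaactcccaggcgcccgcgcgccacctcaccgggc
Atox1, chr11:55461209-55461458, minus strand: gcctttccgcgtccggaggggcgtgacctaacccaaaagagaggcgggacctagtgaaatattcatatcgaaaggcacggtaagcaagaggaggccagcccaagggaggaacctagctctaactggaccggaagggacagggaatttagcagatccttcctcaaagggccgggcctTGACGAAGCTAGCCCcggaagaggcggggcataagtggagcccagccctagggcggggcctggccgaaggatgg
Mt1, chr8:94178839-94179088, plus strand: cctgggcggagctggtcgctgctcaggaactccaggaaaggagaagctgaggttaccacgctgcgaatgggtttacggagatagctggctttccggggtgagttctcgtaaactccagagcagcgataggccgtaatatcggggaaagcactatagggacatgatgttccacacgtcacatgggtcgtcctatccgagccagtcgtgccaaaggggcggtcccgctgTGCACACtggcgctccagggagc

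In the Slc31a2 stretch the metal core begins 238 bases before the start, and an antioxidant core, matched on the opposite strand, begins 164 bases before it. The Atox1 stretch holds an antioxidant core at 74 bases and a p53 decamer at 69 bases, and these 2 matches overlap. The Mt1 stretch holds 1 metal core, at 23 bases. Bases past the RefSeq start were not searched for any gene, so cores that lie there are not counted. Of the 9 members with a RefSeq promoter window, 5 hold a metal core, 4 an antioxidant core and 2 a p53 decamer. Over all 32851 windows of that length the shares are 21.4%, 10.2% and 7.13%. Abcc1 has no entry in the table. A match describes letters in the window and is no evidence that a factor binds there.

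The arrays were alike within each group, with correlations of 0.997 to 0.998 over the 17098 genes, against 0.992 to 0.995 between groups. The 3′ minus 5′ log2 difference of the Actb control probe sets, a measure of RNA integrity, lay between 0.50 and 0.57 on the 8 arrays. Probes that match no transcript and hold 24 G or C bases gave 3.10 on the log2 scale, used here as array background. All 4 p53 targets looked at, Mdm2, Cdkn1a, Btg2 and Plk2, were higher with cisplatin, as were 11.6% of all genes. These targets were chosen with earlier results of these data known, so they are no independent check of the treatment. Of 9 ES cell markers measured, none lay below background. The mean over that list ranged from 11.00 to 11.06 on the cisplatin arrays and from 11.17 to 11.21 on the controls, so the groups did not overlap. Of 19 fibroblast markers 10 lay below background in both groups, among them Col1a2, Dcn, Lum, Pdgfra and Postn. Others lay above it on all 8 arrays, among them Acta2 (8.08 to 8.86), Lox (4.03 to 6.01) and Col5a2 (4.09 to 5.79). For each of these, replicate 3 was lowest and replicate 4 highest within both groups, and none of them was called. The mean over the fibroblast list ranged from 3.50 to 3.91 on the cisplatin arrays and from 3.53 to 3.76 on the controls. The mean over 11 endoderm markers ranged from 3.13 to 3.29 and from 3.06 to 3.27, and over 10 trophoblast markers from 3.44 to 3.58 and from 3.41 to 3.57. In these lists Mmp2, Thy1 and Fbln2 (fibroblast), Amn (endoderm) and Krt7 and Ascl2 (trophoblast) were higher, while Esrrb, Zfp42, Utf1 and Nanog (ES cell) were lower. Fbln2 was below background on all 8 arrays, and its call was lost after centring the arrays on a common median, as were those of Amn and Krt7 (adjusted p = 0.351, 0.056 and 0.06). The calls of Fbln2, Thy1, Amn, Ascl2 and Nanog were lost without some single arrays (adjusted p up to 0.0728, 0.0519, 0.0595, 0.0559 and 0.0603). The part of other cells in the results below was not tested, and in bulk RNA fewer cells of a type and less RNA per cell cannot be told apart.

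The comparison asked whether cells exposed to cisplatin change the transcripts of the genes that handle it. The intracellular copper transporter Slc31a2 and the copper chaperone Atox1 were higher with cisplatin, and the exporter gene Abcc1 was slightly lower. Atp7b was also called higher, but at the level of array background. Of the 9 genes, 3 were higher, 1 was lower and 5 stayed short of the threshold (limma, adjusted p under 0.05 over all genes). In the whole series 11.6% of genes were higher and 7.69% lower, or 19.3% in either direction. The median log2 difference of the 9 genes was 0.20, and that of all 17098 genes was 0.01. The value of 0.20 is that of Atp7b, which lies at background. Over the 20 alternatives the members' median ran from 0.07 to 0.23, and it was 0.07 after centring the arrays. The 4 cisplatin arrays did not overlap with the 4 controls for 6 of the 9, with cisplatin above in 4 and below in 2; groups did not overlap for 24.3% of all genes (14.2% above and 10.1% below). No test was made over the 9 genes as a list.

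**Figure D1:**
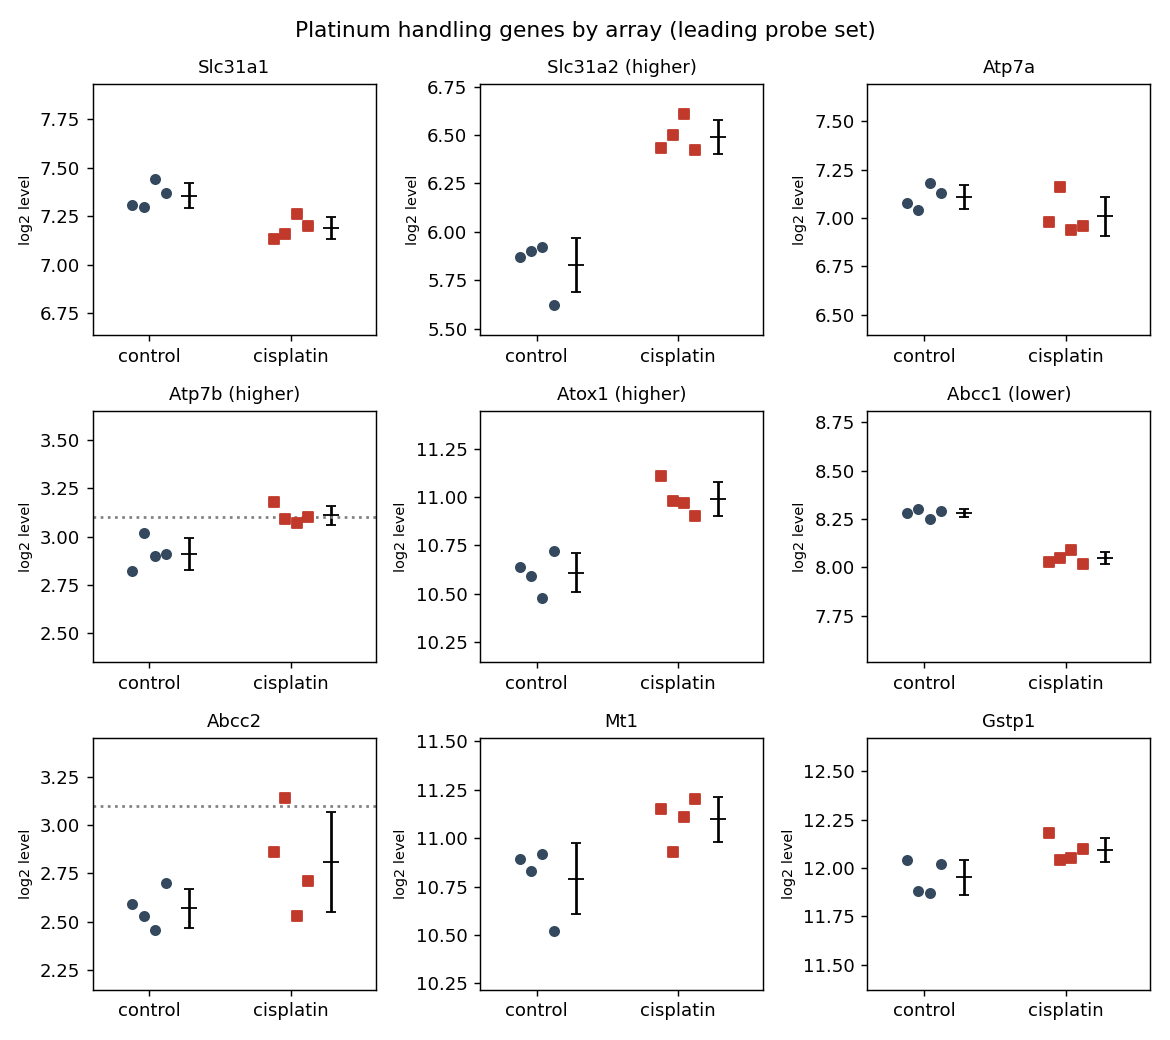
The log2 level of each gene's leading probe set on every array, with control arrays as circles and cisplatin arrays as squares. The black mark and bar beside each group are its mean and SD (n = 4), the dotted line is array background at 3.10, and all panels span the same log2 range. Slc31a2 shows the widest gap between groups, and Atp7b and Abcc2 lie at or below background.

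Of the 2 transporters of the copper family, Slc31a2 changed most. On the cisplatin arrays its log2 level was 6.43, 6.50, 6.61 and 6.42 (replicates 3 to 6), and on the controls 5.87, 5.90, 5.92 and 5.62. Every cisplatin array thus lay above every control, and control replicate 6 was the lowest of all. The log2 difference was 0.66 ± 0.08 (SE, 4 arrays against 4), or 1.58-fold, with a limma adjusted p of 0.000346. The gene's other probe set gave 5.77 ± 0.17 with cisplatin and 5.09 ± 0.12 (SD, n = 4 each) in the controls. That is a difference of 0.68 ± 0.09 (limma adjusted p = 0.000785 over all 28898 probe sets). Both probe sets therefore passed the test in the same direction.

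Slc31a1, the importer at the cell surface, did not pass the test. Its leading probe set read 7.13, 7.16, 7.26 and 7.20 with cisplatin and 7.31, 7.30, 7.44 and 7.37 in the controls. The cisplatin values were all below the controls, by 0.17 on average, with a 95% interval of the difference from -0.29 to -0.04 (limma adjusted p = 0.062). It was called lower without genes below background (adjusted p = 0.0347), with quantile normalization repeated (0.0355) and with an ordinary t statistic (0.0453). The other probe set went the opposite way, from 7.06 ± 0.09 (SD, n = 4) in the controls to 7.21 ± 0.08 with cisplatin, a difference of 0.15 ± 0.07 (SE). That difference did not pass either (limma adjusted p = 0.161). The direction of Slc31a1 is therefore not settled by these arrays. In the RefSeq table of GRCm38.p6 Slc31a2 and Slc31a1 lie on chromosome 4 with 1 gene, Fkbp15, between them. Fkbp15, looked at after the values of Slc31a2 were seen, lay below background, at 2.91 ± 0.31 with cisplatin and 2.92 ± 0.16 (SD, n = 4 each) in the controls, so it gives no measure of that locus.

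Atox1, the chaperone that carries copper to the pumps, was the other member above background that rose. Its leading probe set read 11.11, 10.98, 10.97 and 10.90 with cisplatin and 10.64, 10.59, 10.48 and 10.72 in the controls. The lowest cisplatin array lay above the highest control. The log2 difference was 0.38 ± 0.07 (SE), or 1.30-fold, with a limma adjusted p of 0.0032. Another probe set rose by 0.30 ± 0.06, from 10.34 ± 0.08 (SD, n = 4) to 10.63 ± 0.05 (limma adjusted p = 0.00726). The third probe set was dim, at 2.45 and 2.55, with a difference of 0.10 ± 0.09. Both bright probe sets carry an a or s in their names, which marks sets that can match several transcripts. Without such sets only the dim one is left, and the call ends (0.10, limma adjusted p = 0.513).

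The pumps that take copper from Atox1 showed no such change above background. Atp7a read 6.98, 7.16, 6.94 and 6.96 with cisplatin and 7.08, 7.04, 7.18 and 7.13 in the controls. The groups overlapped because cisplatin replicate 4 stood above the other 3 cisplatin arrays. The difference was -0.10, with a 95% interval from -0.24 to 0.05 (limma adjusted p = 0.364). Its other probe set gave -0.14 ± 0.07 (SE), also short of the threshold. Atp7b, a pump best known from liver, read 3.18, 3.09, 3.07 and 3.10 with cisplatin and 2.82, 3.02, 2.90 and 2.91 in the controls. Only 1 cisplatin array and no control lay above background. The difference of 0.20 ± 0.06 passed the test (limma adjusted p = 0.0394), but not when adjusted over all probe sets (0.0518) or after centring the arrays (0.07, adjusted p = 0.46). The call was also lost without any 1 array other than control replicate 4 (adjusted p from 0.0616 to 0.11). The other Atp7b probe set lay below background on all 8 arrays.

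Abcc1, the exporter MRP1, was the 1 member that fell. It read 8.03, 8.05, 8.09 and 8.02 with cisplatin and 8.28, 8.30, 8.25 and 8.29 in the controls. The groups were far apart compared with their spread, though the change was small. The log2 difference was -0.23 ± 0.05 (SE), or 1.17-fold lower, with a limma adjusted p of 0.00704. The second probe set, read at 5.60 ± 0.13 (SD, n = 4) in the controls, overlapped between groups at -0.16 ± 0.09 (limma adjusted p = 0.288), and the call ends when it stands for the gene. Abcc2 (MRP2), an exporter of liver and kidney, lay below background on every control array. Its values were 2.86, 3.14, 2.53 and 2.71 with cisplatin and 2.59, 2.53, 2.46 and 2.70 in the controls, so no change could be read for it.

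Among the genes that bind platinum or couple it to glutathione, none passed the test. Mt1 read 11.15, 10.93, 11.11 and 11.20 with cisplatin and 10.89, 10.83, 10.92 and 10.52 in the controls. The lowest cisplatin array, replicate 4, was just above the highest control, and control replicate 6 stood lowest. The difference was 0.31 ± 0.10 (SE), with a 95% interval from 0.09 to 0.52 and a limma adjusted p of 0.0527. It fell on the other side of the threshold with the mean of its probe sets (0.20, adjusted p = 0.0391) and without genes below background (0.0397). The same held with an intensity trend (0.00656) or without cisplatin replicate 4 (0.037). Other alternatives weakened it: adjusted p was 0.125 without cisplatin replicate 6 and 0.178 after centring the arrays (0.18). Without probe sets marked x, a or s the difference was 0.10 (adjusted p = 0.359). The leading probe set carries the s mark, and Mt2 is a close relative that lies next to Mt1 in the RefSeq table, so its signal may not be from Mt1 alone. The second Mt1 probe set was near background, at 3.05 ± 0.10 (SD, n = 4) in the controls and 3.15 ± 0.03 with cisplatin. Gstp1 read 12.18, 12.04, 12.05 and 12.10 with cisplatin and 12.04, 11.88, 11.87 and 12.02 in the controls. These groups met at 12.04. The difference was 0.14, with a 95% interval from 0.00 to 0.28 (limma adjusted p = 0.153). With an intensity trend it was called higher (adjusted p = 0.0215), but after centring the arrays it was at 0.01 (adjusted p = 0.921). Gstp1 has near-identical copies in the mouse, so its signal may include them.

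**Figure D2:**
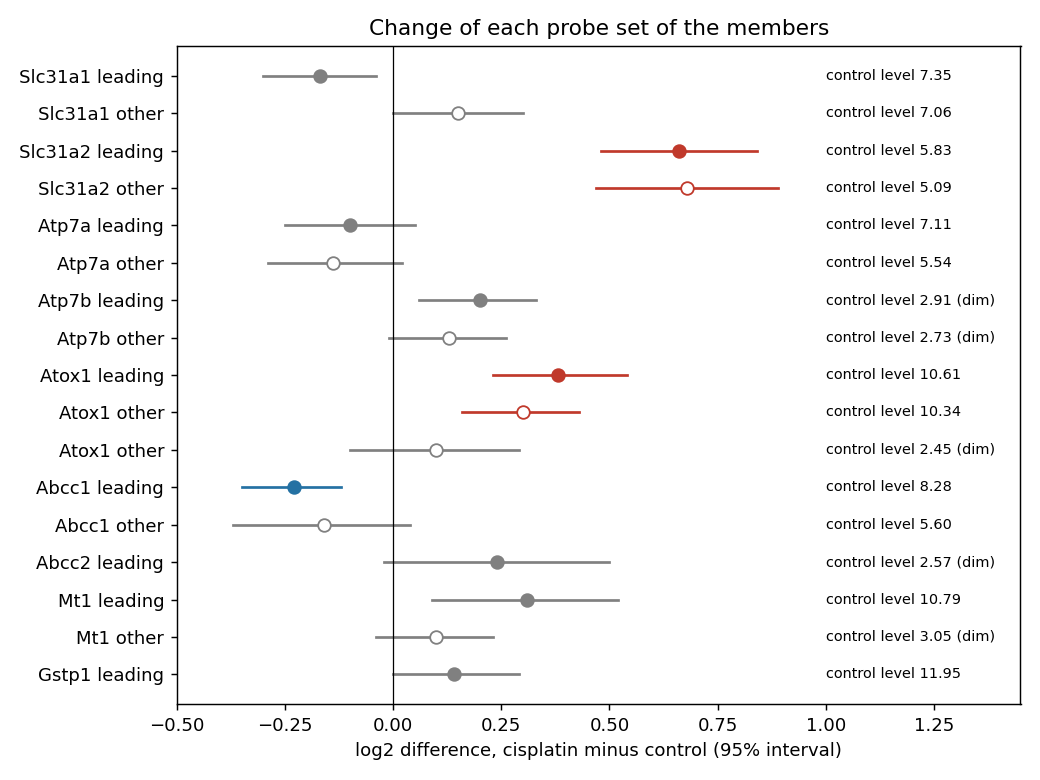
The log2 difference (cisplatin minus control) with its 95% interval for each of the 17 probe sets, in red where called higher, blue where called lower and grey otherwise. Filled points are leading probe sets, and numbers at the right are control means, marked dim below 3.10. Both sets of Slc31a2 and the 2 bright sets of Atox1 pass on the same side, and the 2 sets of Slc31a1 lie on opposite sides of 0. Calls here are adjusted over all probe sets, so Atp7b is grey.

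Over all 17 probe sets, 4 were higher and 1 was lower (29.4% called), against 16.3% of the 28898 probe sets. The differences depend on where 0 is set. When every array was shifted to a common median of gene levels (centring), the median difference over all genes went from 0.01 to -0.12. After centring, Slc31a2 was at 0.53 and Atox1 at 0.25, both still called. Abcc1 was then at -0.36, while Slc31a1 at -0.30 and Atp7a at -0.23 became called lower (adjusted p = 0.00325 and 0.0319). Centring gave 1087 higher and 3925 lower genes in the whole series, in place of 1989 and 1314.

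Transcripts of genes around the members were read in the same way. Among 6 measured genes of other platinum uptake and efflux routes, 1 was lower and none higher. That is 16.7% called, against 19.3% of all genes. The lower gene was Lrrc8d, a subunit of the volume-regulated anion channel that can let cisplatin through. It read 6.59, 6.68, 6.87 and 6.69 with cisplatin and 7.59, 7.55, 7.65 and 7.42 in the controls. The groups were well apart, with a log2 difference of -0.85 ± 0.07 (SE), or 1.8-fold lower (limma adjusted p = 7.11e-05), and its second probe set gave -0.99 ± 0.09. Lrrc8a, the subunit that every such channel needs, was at 0.18 ± 0.07 (limma adjusted p = 0.0943). The cation exporter gene Slc47a1 (MATE1) was at -0.10 ± 0.09, and the cation importer gene Slc22a2 (OCT2) lay below background.

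Of 9 other ABC drug exporters, 1 was higher and 2 were lower (33.3% called, against 19.3% of all genes). Abcb1b, which encodes a P-glycoprotein, read 7.94, 7.93, 8.28 and 8.23 with cisplatin and 6.82, 6.72, 6.87 and 6.83 in the controls. Its log2 difference was 1.28 ± 0.09 (SE), or 2.43-fold (limma adjusted p = 2.41e-05), more than that of any member. The other Abcb1b probe set lay below background on all 8 arrays, at 0.07 ± 0.07, and the lowest alternative for the gene was 0.68. The near copy Abcb1a was at -0.01 ± 0.10, with a 95% interval from -0.22 to 0.21, and the difference between the 2 copies was not tested. Abcc4 (MRP4), an exporter of cyclic nucleotides and drug conjugates, fell by 0.87 ± 0.08 on the log2 scale (limma adjusted p = 7.94e-05). Abcg2 was at -0.20 ± 0.06 (limma adjusted p = 0.0361), and its call was lost without any of 6 single arrays (adjusted p up to 0.095).

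Of 15 copper genes 2 were higher, none was lower, and the median difference was 0.08. That is 13.3% called, against 19.3% of all genes, and the higher count ran from 1 to 5 over the alternatives. These were Steap1, a relative of the metalloreductases, at 0.44 ± 0.06 (limma adjusted p = 0.000581), and Sco1, a copper chaperone of cytochrome oxidase, at 0.43 ± 0.13 (0.0445). The Sco1 call was lost without any of 6 single arrays (adjusted p up to 0.108) and with the replicate block (0.0514). The chaperones Ccs and Cox17 were at 0.14 ± 0.06 and 0.12 ± 0.06 and did not pass. Of 27 genes of zinc transport and metallothionein control, 3 were higher and 1 lower, or 14.8% called, against 19.3% of all genes. The higher count was 6 with the replicate number as a block, and the lower count was 5 after centring. The zinc importers Slc39a4 and Slc39a9 rose by 0.51 ± 0.07 and 0.43 ± 0.07, and the exporter Slc30a4 was at 0.36 ± 0.10 (adjusted p = 0.0286, and up to 0.0703 with 1 array left out). The Slc39a9 call rests on 1 probe set: the other 2 lay below background at -0.13 ± 0.07 and 0.10 ± 0.08, and the mean of its probe sets gave 0.13 (adjusted p = 0.092). Slc39a11 fell by 0.69 ± 0.09 on the log2 scale. Mtf1, the factor that drives metallothionein genes, was at -0.08 ± 0.06, and Slc30a1, one of its known targets, at 0.15 ± 0.06 (limma adjusted p = 0.117).

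The glutathione genes held the largest fall among all the listed genes around the members, that of Chac1. In synthesis and turnover 5 of 14 genes were higher and 2 lower, or 50% called, against 19.3% of all genes. After centring the higher count was 3. This enzyme degrades glutathione, and its transcript fell by 1.74 ± 0.15 on the log2 scale, while its relative Chac2 was higher by 0.45 ± 0.05. Ggt5, a gamma-glutamyl transferase, read 4.02, 4.17, 4.21 and 4.38 with cisplatin and lay below background on all 4 controls, so it was at least 2.15-fold higher (limma adjusted p = 1.68e-05). That bound sets the cisplatin mean against background on the control arrays. Cbs, which feeds cysteine supply, rose by 0.73 ± 0.11, and Gclc, the catalytic subunit of the first step of synthesis, by 0.23 ± 0.05 (adjusted p = 0.014). Gclm, the partner of Gclc, was at -0.03 ± 0.06, and Slc3a2, a subunit of amino acid transporters, was lower, at -0.28 ± 0.05. The Gclc call was lost after centring (0.10, adjusted p = 0.205).

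Of 20 other glutathione transferases measured, 4 were higher and 1 lower (25% called, against 19.3% of all genes), with a median of 0.15. After centring the higher count was 1. Gsto1 led with 8.76, 8.85, 8.81 and 8.74 on the cisplatin arrays and 8.08, 8.29, 8.11 and 8.11 on the controls. That is 0.64 ± 0.06 (SE, limma adjusted p = 0.000103), with both of its probe sets called. Gstm5 and Gstp3 were at 0.27 ± 0.06 and 0.34 ± 0.09, and Gstm6, close to background in the controls at 3.23, at 0.45 ± 0.14. The calls of Gstm5, Gstp3 and Gstm6 were lost after centring (adjusted p = 0.138, 0.0877 and 0.108). Those of Gstp3 and Gstm6 were also lost without some single arrays (adjusted p up to 0.0623 and 0.104), and that of Gstm6 with the replicate block (0.0813). Gstcd was lower, at -0.25 ± 0.06. Transferases of one class share sequence, so their signals may not be separate.

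**Figure D3:**
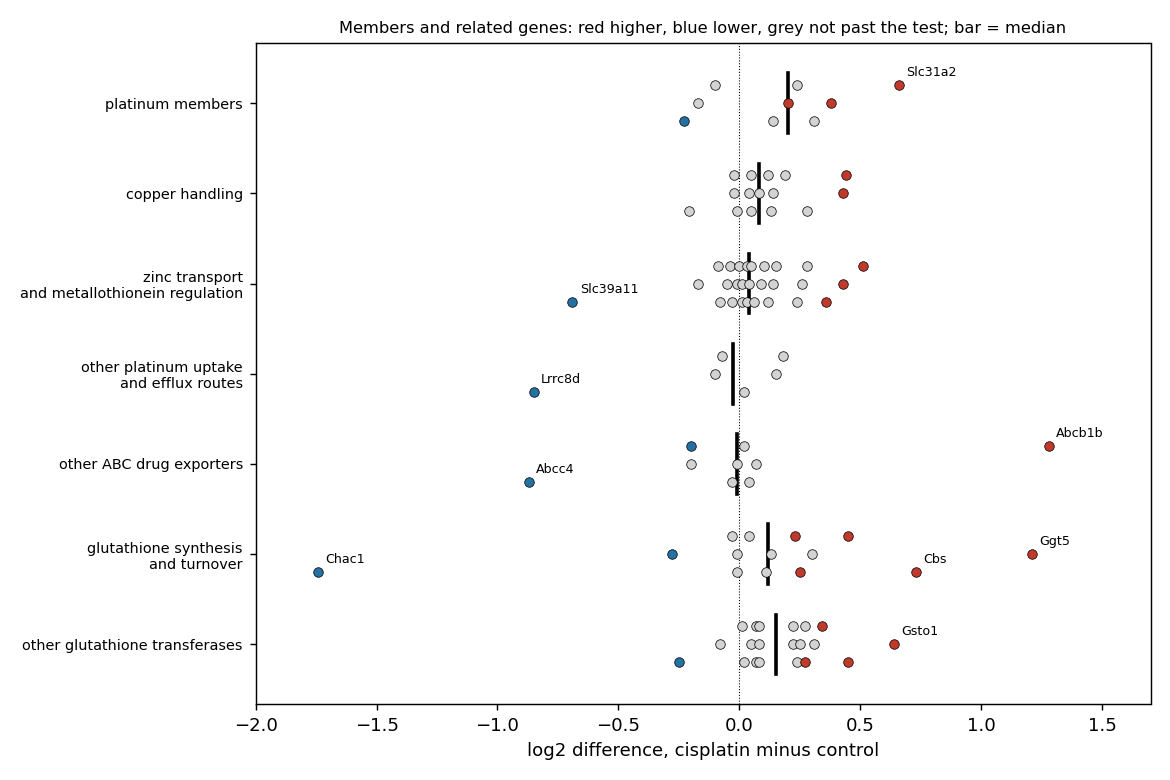
Each point is 1 gene, placed by its log2 difference (cisplatin minus control) within its list, in red where called higher, blue where called lower and grey where not past the test. The black bar is the list's median. The members' median lies at 0.20, and among the 7 lists drawn the widest differences are those of Chac1, Abcb1b and Ggt5. The p53 targets are not drawn.

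Gene length moved with the direction of the calls. Of the members and related genes, 100 were measured, 12 of them over 100 kb long, and 8 of the 100 were lower. Of those 8, 6 are that long in the reference annotation: Abcc1 (113 kb), Abcc4 (225 kb), Abcg2 (108 kb), Gstcd (110 kb), Lrrc8d (115 kb) and Slc39a11 (405 kb). None of the 18 higher ones is that long, and Slc31a2 and Atox1 span 18.0 and 14.6 kb. In the whole series 26.9% of genes over 100 kb were lower and 3.58% higher, against 4.96% and 12.9% of shorter genes, and 43.8% of all lower genes were over 100 kb. The part of length in the change of Abcc1 was not tested. The other 6 long genes were not called: Atp7a (101 kb), Abcb1a, Heph, Slc39a10, Slc39a12 and Slc7a11.

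**Figure D4:**
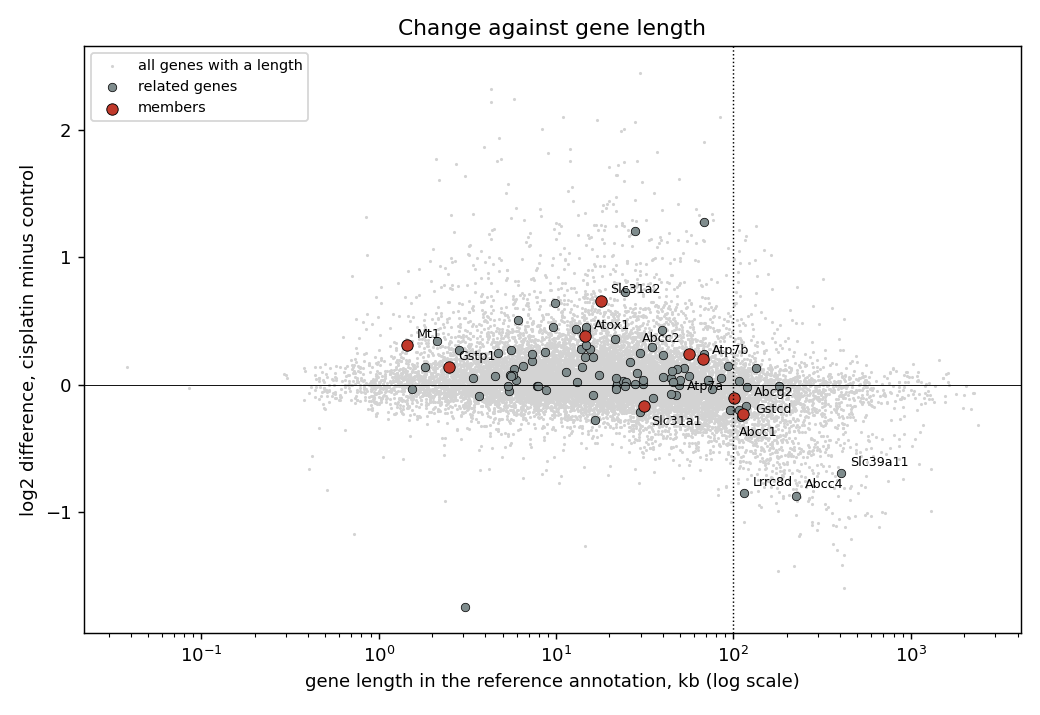
The log2 difference (cisplatin minus control) of each gene against its length on a log axis, with members in red, related genes in dark grey and all 16937 genes with a length in light grey. The dotted line marks 100 kb. Abcc1, Lrrc8d, Abcc4 and Slc39a11 lie to its right and below 0.

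Over the 8 arrays, the genes whose level followed Slc31a2 most closely were Perp, a p53 target of cell death and adhesion, Akr1b10 and Rap2b. Their Pearson correlations with it were 0.998, 0.997 and 0.997, among 8069 genes with a mean level of at least 5. Perp rose by 1.85 ± 0.19 (SE), Akr1b10 by 0.88 ± 0.10 and Rap2b by 1.00 ± 0.10. Mt1 was followed by Pgrmc1, Rsrp1 and Ppp2r3c, at 0.989, 0.979 and 0.973. Of these Rsrp1 was called higher, at 0.33 ± 0.09, and Pgrmc1 and Ppp2r3c were not, at 0.20 ± 0.07 and 0.10 ± 0.06. These correlations are descriptions over arrays that share the treatment difference, picked as the highest among many genes. In deviations from the group means they were 0.98, 0.97 and 0.96 with Slc31a2, and 0.97, 0.96 and 0.97 with Mt1. Those values come from the same arrays on which the genes were picked.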

How the data were processed

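Total RNA of 8 ES cell samples was amplified and labelled from the 3′ end of mRNA, per the labels' protocols, and read on 1 array each. The authors deposited log2 expression values per probe set, made with RMA per the submitters' processing notes, which also name limma. Their versions and a genome build were not given in the sources used here. RMA sets all arrays to 1 distribution, which hides any shift in RNA content shared by most genes. The number of arrays limits the precision, and the median SE of a log2 difference was 0.08.

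Probe sets with several or no listed genes were left out. Symbols were updated by Entrez identifier in RefSeq (GRCm38.p6), which held 16937 of the 17098 genes. Groups came from the sample titles. Limma 3.58.1 in R 4.3.3 (lmFit, eBayes) compared cisplatin with control over all genes, with Benjamini-Hochberg adjustment and a threshold of 0.05. The test was tested on simulated data. Members and lists were chosen with earlier results of these data known. Named were all members, up to 6 called genes of each related list, the called markers, and the 3 genes most correlated with Mt1 and with the member of smallest p besides it; other related genes were added for context after their values were seen. Alternatives covered the probe set, dim genes, normalization, centring, the test, the threshold, a replicate block and each array left out. Figures were drawn with matplotlib 3.10.9.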

Additional observations from a re-analysis of the deposited data

Results flagged for a closer look

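Groups of 4 arrays were checked for a single array far from the other 3, over 34 groups (17 probe sets in both treatments), where chance alone marks about 1 in 20. For Atp7a, cisplatin replicate 4 read 7.16 on the leading probe set, against 6.94 to 6.98 on the other cisplatin arrays. For Atox1, the same array read 2.77 on the dim probe set, against 2.45 to 2.50. Without that array the difference of Atp7a was -0.15 (limma adjusted p = 0.127).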

How the results depend on the processing

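The calls of Slc31a2 held under all 20 alternatives (0.53 to 0.70), and those of Atox1 and Abcc1 under 19 of 20. Members called lower numbered 1, but 0 with the most variable probe set, 2 without genes below background, with repeated quantile normalization or with an ordinary t statistic, and 3 after centring. Members called higher ranged from 2 to 4, and from 2 to 3 with single arrays left out, which kept 1 member lower. The 5 called member probe sets became 5 to 6 with single arrays left out. Slc31a1 reversed to 0.15 with the most variable probe set, since its 2 probe sets differ in sign. Genes called in all were 1087 higher and 3925 lower after centring, and 1113 and 742 at a threshold of 0.01. With single arrays left out they ranged from 1580 to 1871 and from 1037 to 1246. Same-numbered arrays of the groups correlated at 0.20, 0.18, 0.20 and 0.06 in their deviations, and 7 of 8 correlated best with their own number. That is a hint of shared sets in the data, but the labels give no pairing and 1 of the 4 correlations was under 0.1. With the replicate block Atp7b lost its call (adjusted p = 0.0739), as did Sco1 (0.0514) and Gstm6 (0.0813), and no other member's call changed, leaving 2 higher and 1 lower. Signal near background limits Atp7b and Abcc2.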

Other observations

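A probe set annotated to both Pomt2 and Mt1, outside the comparison because it names 2 genes, read 4.90, 4.89, 5.03 and 4.62 with cisplatin and 4.55, 4.50, 4.43 and 4.45 in the controls. Its lowest cisplatin array lay above its highest control, with a difference of 0.38 on the log2 scale.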
